A study of Mus musculus with 6 samples.

Results

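Interleukin receptors are the cell surface chains through which cells sense interleukins, and 35 of their genes were measured among the 19938 genes tested in mouse intestinal crypts. The members were the genes whose symbol begins with Il, a number and r, leaving out Il1rn, a secreted antagonist, and Il1rl1. Il1r1 and Il2rg, which would also carry such a symbol, were not analysed here. Crypts are pockets of the gut epithelium where its stem cells divide. They came from 3 control mice and 3 YAP transgenic (YAP Tg) mice, with 1 array per mouse. By the title of the series the transgenic mice carried YAP-S127A, in which the serine that Hippo kinases phosphorylate to inhibit the coactivator YAP is lost, together with Villin-rtTA, whose promoter is active in intestinal epithelium. Doxycycline, the drug that switches such a transgene on, was given for 2 days, by a design text that speaks of the mice without naming groups. The alleles of the controls are not given in it, and if the controls had no doxycycline, a drug effect and a transgene effect cannot be told apart. Strain, sex and age are not given there either.

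Most interleukin receptors are pairs of chains, 1 that recognises the ligand and 1 that is shared between several cytokines. Class I and class II chains signal through Janus kinases (JAK) and STAT transcription factors, while the IL-1 and IL-17 receptor families signal through the adaptors MyD88 and Act1 to NF-kB. In the gut, lymphocytes that sit between epithelial cells carry chains such as Il2rb, the shared beta chain of the IL-2 and IL-15 receptors. Epithelial cells carry chains such as Il22ra1, the specific chain of the receptor for IL-22, a cytokine of barrier defence. The receptors were therefore grouped by the cells that typically carry them and by family, with both groupings drawn up by hand.

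All 8 crypt markers and all 8 epithelial markers had means above the array controls described next in both groups, and 4 of 8 crypt markers (Lgr5, Ascl2, Olfm4 and Agr2) fell. Without control mouse 3, 2 crypt markers were called lower, and without transgenic mouse 2, 6 were. Over all genes 6.7% were called lower, and 19.5% without transgenic mouse 2. Array medians were 6.74 to 6.79 on the log2 scale. A rough mark of background is the median signal of 6617 probe sets taken to be array controls. Its mean over the control arrays was 4.97 ± 0.01 (SD, n = 3) and over the transgenic arrays 5.17 ± 0.15 (SD, n = 3). The median difference was 0.03 over all genes and 0.04 over the 3600 genes whose mean lay below that mark. Yap1 itself had signals of 9.41 ± 0.09 in the controls and 9.17 ± 0.16 in the transgenic mice (SD, n = 3; limma's adjusted p = 0.184), so this probe set gives no check of the transgene, whose overlap with it is unknown here. Nothing in the labels says more of the mice than their number, so p-values measure the spread between these samples.

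In the transgenic crypts 10 of the 35 receptors rose and 0 fell in limma (adjusted p below 0.05), and 25 were not called. Over all genes 7.5% were called higher and 6.7% lower. At an unadjusted p below 0.05, 15 receptors were higher and 2 lower. The largest increases were in Il21r (2.69-fold), the receptor of the T cell cytokine IL-21, in Il2rb (2.68-fold) and in Il4ra (2.33-fold), the chain that binds IL-4. The other 7 called receptors were Il12rb2, Il22ra1, Il7r, Il27ra, Il12rb1, Il13ra1 and Il1rl2. The median difference over the 35 was 0.27 on the log2 scale, and 30 of the 35 differences were above 0, against 56.3% of all genes. All 3 transgenic arrays lay above all 3 control arrays for 16 receptors and below them for 2 (Il17rd and Il1rap), against 16.5% and 17% of all genes.

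The count rested on the arrays used. It became 5 when any 1 control was left out and 16 when transgenic mouse 2 was, and there 14.1% of all genes were called higher. Leaving out a mouse leaves fewer arrays for every gene, and the shares of all genes called without a control are not given here. The 5 receptors called whichever mouse was left out were Il21r, Il4ra, Il27ra, Il2rb and Il7r. The other 5 (Il13ra1, Il1rl2, Il12rb2, Il22ra1 and Il12rb1) were each not called without control mouse 1, 2 or 3.

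The signal of a receptor bore on whether it was called. Of 15 receptors with a mean above the median of all genes, 7 were called, against 12.7% of such genes. Of 9 receptors with a mean below the median of the array controls, only Il1rl2 was called, against 0.583% of such genes. The 11 receptors between these marks held 2 calls, against 3.20% of genes there. A probe set near background says little about its gene.

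**Figure D1:**
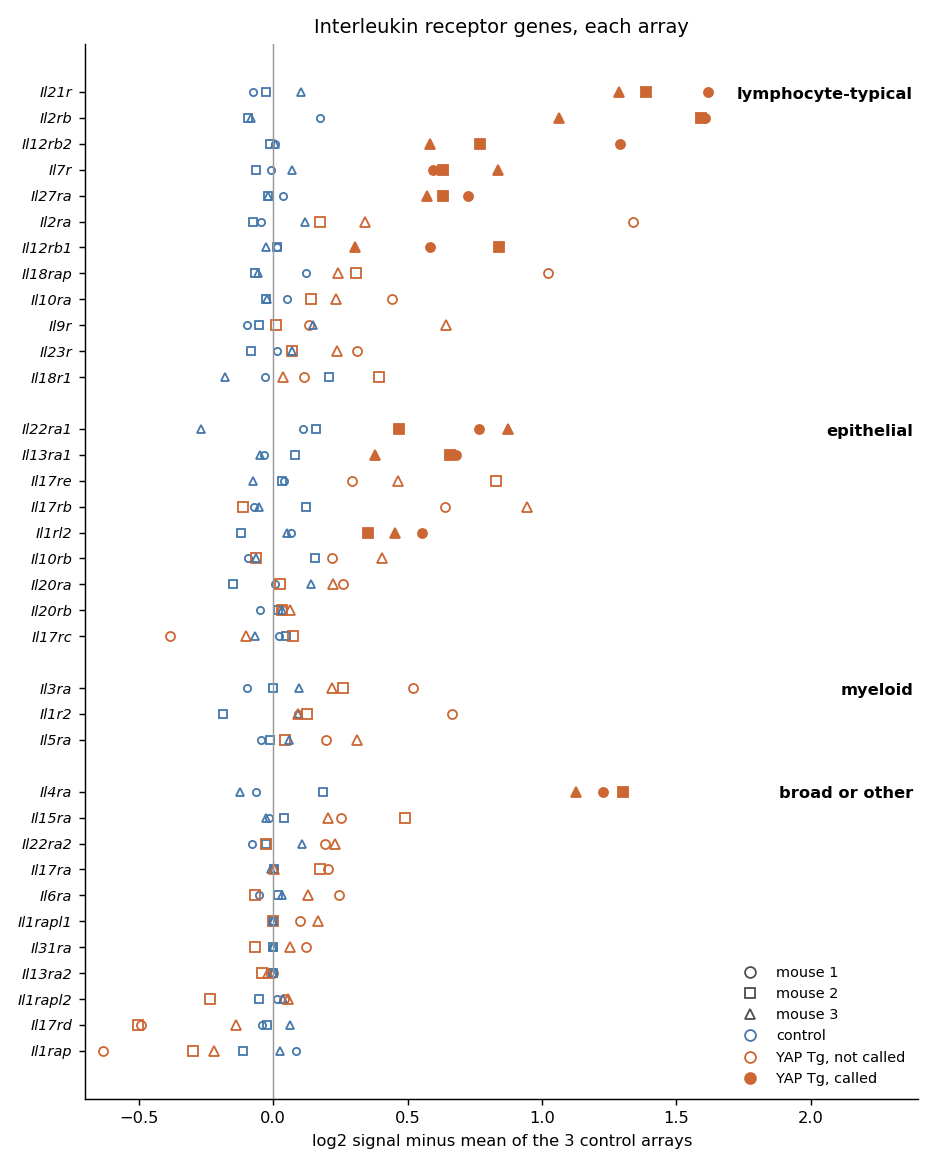
Log2 signal of each of the 35 interleukin receptor genes on each array, minus the mean of the 3 control arrays (x axis), with genes on the y axis grouped by the cells that typically carry them. Blue open symbols are control arrays, orange symbols are transgenic arrays, filled where limma called the gene, and the symbol shape gives the mouse number; the 10 called genes have all 3 transgenic symbols to the right of all control symbols.

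Promoter sequences were available here for 28 of the 35 genes, 7 of them called. The 250 bases before the start are shown for 4 of these 7. They are Il4ra and Il21r, which are neighbours on chromosome 7 and both rose at least 2-fold, Il22ra1, the called epithelial chain with the higher fold, and Il7r, the called lymphocyte chain in which matches to 2 motifs were found. The build is GRCm38.p6, each sequence is written 5′ to 3′ on the gene's strand, and capitals mark motif matches.
Il4ra, chr7:125552021-125552270, plus strand: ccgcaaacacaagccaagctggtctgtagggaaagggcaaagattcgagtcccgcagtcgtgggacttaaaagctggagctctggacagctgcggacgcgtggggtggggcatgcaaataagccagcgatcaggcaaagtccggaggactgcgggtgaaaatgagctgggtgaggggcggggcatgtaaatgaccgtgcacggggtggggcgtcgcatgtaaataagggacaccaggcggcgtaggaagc
Il21r, chr7:125603179-125603428, plus strand: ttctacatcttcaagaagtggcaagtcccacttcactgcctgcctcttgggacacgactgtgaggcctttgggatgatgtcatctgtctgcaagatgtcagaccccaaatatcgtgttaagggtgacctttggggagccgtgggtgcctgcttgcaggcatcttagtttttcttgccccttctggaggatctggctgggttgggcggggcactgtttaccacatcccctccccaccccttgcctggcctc
Il22ra1, chr4:135727909-135728158, plus strand: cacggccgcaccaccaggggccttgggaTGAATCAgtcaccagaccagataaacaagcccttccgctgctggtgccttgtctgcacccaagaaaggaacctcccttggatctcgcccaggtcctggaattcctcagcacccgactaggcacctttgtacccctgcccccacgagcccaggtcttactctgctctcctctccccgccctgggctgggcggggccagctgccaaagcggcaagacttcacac
Il7r, chr15:9529877-9530126, minus strand: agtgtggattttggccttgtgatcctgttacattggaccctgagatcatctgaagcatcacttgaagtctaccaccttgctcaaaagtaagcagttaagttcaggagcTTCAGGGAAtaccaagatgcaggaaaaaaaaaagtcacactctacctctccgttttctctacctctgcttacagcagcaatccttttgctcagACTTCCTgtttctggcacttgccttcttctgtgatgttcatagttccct
The 4 motifs searched on both strands were GGAATG (the site of TEAD factors, the DNA-binding partners of YAP), TGANTCA (AP-1), TTCNNNGAA (STAT) and AGGAAGT (ETS). None of these letter strings contains another, although matches may overlap. TGANTCA matched in Il22ra1 with its first base 222 bases before the start. In Il7r, TTCNNNGAA matched at 142 and AGGAAGT, on the other strand, at 49 bases before the start. No match to the 4 motifs was found in the windows of Il4ra and Il21r. GGAATG was in 0 of the 7 windows of called receptors, in 3 of the 28 receptors (Il13ra2, Il15ra and Il17re) and in 12.6% of 32851 promoter windows of this length. TGANTCA was in 6 of the 28 receptors and 6.75% of all windows, TTCNNNGAA in 5 and 7.02%, and AGGAAGT in 6 and 7.69%. A match is a string of letters and not a measured site.

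Receptors of the common gamma chain family rose together in part, with 4 of 7 measured members called higher (Il21r, Il2rb, Il4ra and Il7r). Over all genes 7.5% were called higher. The median difference of the 7 members was 0.69. Il2rb had log2 signals of 8.70, 8.43 and 8.44 in control mice 1, 2 and 3 and of 10.13, 10.11 and 9.59 in transgenic mice 1, 2 and 3. The lowest transgenic array lay well above the highest control, and transgenic mouse 3 was the lowest of its group. Il2rb rose from 8.52 ± 0.15 (SD, n = 3) to 9.94 ± 0.31, a log2 difference of 1.42 (SE 0.17, limma's adjusted p = 0.00438).

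Il21r stood at 6.97, 7.02 and 7.15 in the controls and at 8.66, 8.43 and 8.33 in the transgenic mice. Its groups were far apart, with a difference of 1.43 (SE 0.11, limma's adjusted p = 0.00106). This was the smallest adjusted p among the receptors.

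Il7r, the alpha chain for IL-7, a survival signal of T cells and innate lymphoid cells, stood at 6.43, 6.37 and 6.50 in the controls. Its transgenic values were 7.03, 7.06 and 7.27, with transgenic mouse 3 the highest. The groups did not overlap, and the difference was 0.69 (SE 0.09, limma's adjusted p = 0.00601).

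The remaining members of this family were not called. Il15ra, the chain that presents IL-15 to cells bearing Il2rb, stood at 7.74, 7.80 and 7.73 in control and 8.01, 8.25 and 7.96 in transgenic mice. All transgenic values were above the controls, with a difference of 0.32 (95% interval 0.09 to 0.54, limma's adjusted p = 0.0790). Il2ra, the high-affinity chain of activated and regulatory T cells, was low in the controls (4.73, 4.70 and 4.90) and stood at 6.12, 4.95 and 5.12 in transgenic mice. The groups did not overlap, but transgenic mouse 1 stood far above the other 2, and the interval of the difference ran from -0.11 to 1.35 (limma's adjusted p = 0.225). Il9r, the receptor of IL-9, differed by 0.26 (limma's adjusted p = 0.366).

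Both chains of the type II IL-4 receptor, through which non-lymphoid cells respond to IL-4 and IL-13, rose. Il4ra, which lymphocytes and epithelial cells both carry, stood at 8.74, 8.99 and 8.68 in the controls and at 10.03, 10.11 and 9.93 in the transgenic mice. The transgenic values lay within 0.2 of each other and more than 0.9 above the highest control. The difference was 1.22 (SE 0.10, limma's adjusted p = 0.00162). Il13ra1, the IL-13 binding chain of that receptor, had values of 11.20, 11.32 and 11.19 in control and 11.91, 11.89 and 11.61 in transgenic crypts. It rose 1.49-fold without overlap between the groups, a difference of 0.57 (SE 0.10, adjusted p = 0.0170 in limma). Without control mouse 1, 2 or 3 it was not called (adjusted p of at most 0.0844). Il13ra2, a decoy for IL-13, was at 3.19 to 3.23 on all arrays, below the array controls.

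Il4ra and Il21r are immediate neighbours in the RefSeq order of protein-coding genes, and both were called. There were 6 such neighbouring pairs of receptors, and this was the 1 pair with both genes called. Over all genes 7.5% were called higher, and how often neighbouring genes were called together was not counted. In the pair Il12rb2 and Il23r 1 gene was called, and in the pairs Il2ra and Il15ra, Il18r1 and Il18rap, Il17re and Il17rc, and Il22ra2 and Il20ra no gene was.

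**Figure D2:**
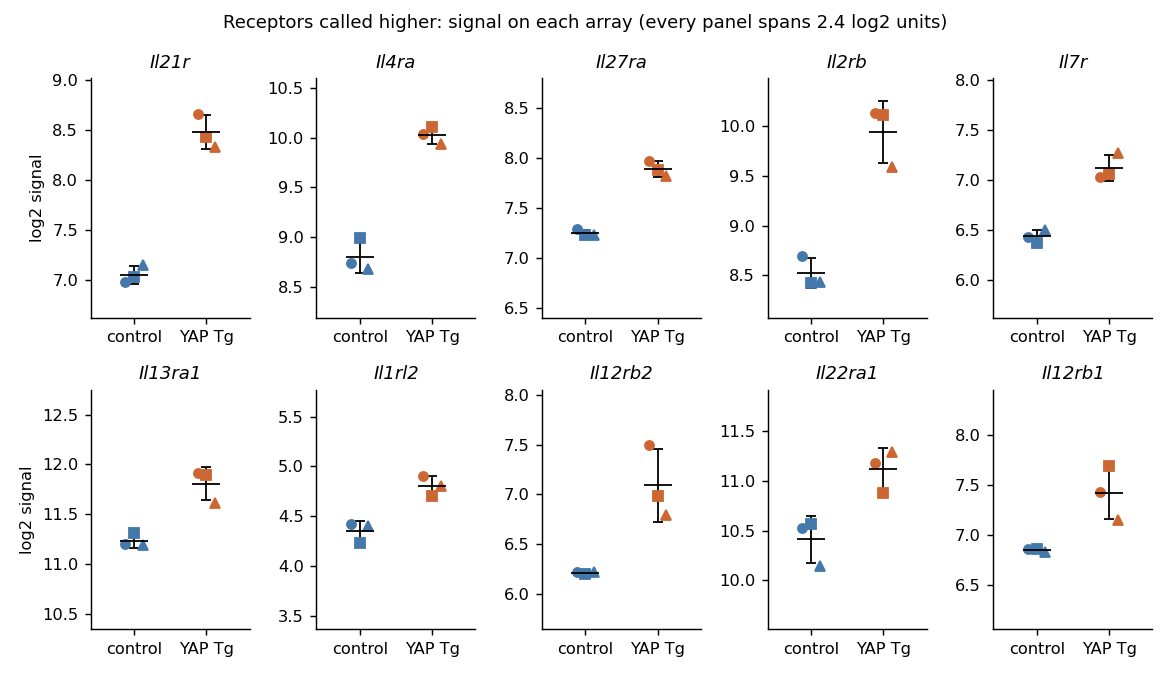
Log2 signal (y axis) of the 10 receptors called higher, in control (blue) and transgenic (orange) crypts. Symbols are single mice, horizontal lines are means and error bars SD (n = 3); every panel spans the same 2.4 log2 units, so heights compare between panels, and Il21r, Il2rb and Il4ra show the widest gaps.

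Of 6 members of the IL-6 and IL-12 receptor families 3 rose, against 7.5% of all genes, with a median difference of 0.39. Both chains of the IL-12 receptor, which directs T cells and NK cells to make interferon gamma, were among them. Il12rb2 stood at 6.22, 6.20 and 6.22 in the controls and at 7.50, 6.98 and 6.79 in transgenic mice. The controls were almost level, with an identical value in control mice 1 and 3. The transgenic mice spread widely, with mouse 1 the highest. It rose 1.84-fold, by 0.88 (SE 0.18, limma's adjusted p = 0.0250).

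Il12rb1, which the IL-12 and IL-23 receptors share, stood at 6.86, 6.86 and 6.82 in the controls and 7.43, 7.69 and 7.15 in transgenic mice. Control mice 1 and 2 had an identical value, and mouse 2 was the highest transgenic sample. The difference was 0.58 (SE 0.14, limma's adjusted p = 0.0415). Without 1 control, the adjusted p reached 0.104 for Il12rb2 and, there or without transgenic mouse 1, up to 0.145 for Il12rb1. With the replicate number as a block neither was called (0.0514 and 0.0675).

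Il27ra, the receptor of IL-27, a cytokine that tempers T cell responses, had values of 7.29, 7.23 and 7.23 in control crypts. The transgenic values were 7.97, 7.88 and 7.82. Both groups were tight, and the difference of 0.64 (SE 0.07, limma's adjusted p = 0.00342) stood far outside their spread. Il23r, the specific chain for IL-23, lay below the array controls on all 6 arrays. Il6ra, the IL-6 binding chain, differed by 0.10 (95% interval -0.13 to 0.34), and Il31ra was below the array controls.

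Of 6 class II receptors only Il22ra1 was called higher, against 7.5% of all genes. It stood at 10.52, 10.57 and 10.14 in the controls and at 11.18, 10.88 and 11.29 in the transgenic mice. The nearest values of the groups, control mouse 2 and transgenic mouse 2, were 0.3 apart. Il22ra1 rose 1.63-fold, a difference of 0.70 (SE 0.16, adjusted p = 0.0339 in limma), and its second probe set differed by 0.68. The call was lost without any 1 control or without transgenic mouse 1 or 3 (adjusted p up to 0.113) and with the replicate number as a block (0.0960).

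Il10rb, which pairs with Il22ra1 to form the IL-22 receptor, was not called. It stood at 10.48, 10.73 and 10.51 in control and 10.79, 10.51 and 10.98 in transgenic crypts, and the groups overlapped. The 95% interval of its difference ran from -0.15 to 0.52. Il20rb, a chain of receptors for IL-19, IL-20 and IL-24, was nearly level on the probe set used (adjusted p = 0.693 in limma). It stood at 6.99, 7.06 and 7.07 in control and 7.07, 7.07 and 7.11 in transgenic crypts. Other probe sets of Il20rb differed by 0.19, without overlap between the groups, and by 0.13, and were not tested alone. Its partner Il20ra and the IL-22 decoy Il22ra2 were below the array controls on all arrays. Il10ra, the IL-10 binding chain of leukocytes, differed by 0.27 (limma's adjusted p = 0.118) with no overlap between the groups.

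None of the 5 IL-17 receptors was called in the unweighted comparison of all mice, although Il17re and Il17rb were called with array weights and Il17re and Il17rd after quantile normalization. Il17re, the epithelial receptor of IL-17C, stood at 6.49, 6.48 and 6.38 in control and at 6.75, 7.28 and 6.91 in transgenic crypts. All transgenic values were above the controls, mouse 2 the most, with a difference of 0.53 (SE 0.14, limma's adjusted p = 0.0595). It was called without transgenic mouse 2 or without transgenic mouse 1.

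Il17rb, the receptor of the tuft cell cytokine IL-25, stood at 6.80, 6.99 and 6.81 in the controls and at 7.51, 6.76 and 7.81 in transgenic mice. Transgenic mouse 2 was below all controls while the others were above. Without that mouse the difference was 0.79 (limma's adjusted p = 0.00669). The median of 5 tuft cell markers, whose part in this was not tested, differed from the control mean by 0.45, -0.40 and 0.92 in the same 3 mice.

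Il17rc, which binds IL-17A and IL-17F together with Il17ra, stood at 10.58, 10.60 and 10.49 in control and at 10.17, 10.63 and 10.45 in transgenic crypts. The groups overlapped, and the interval of the difference was -0.44 to 0.17. Il17ra, the chain all IL-17 receptors share, differed by 0.13 (limma's adjusted p = 0.322). Il17rd, an inhibitor of fibroblast growth factor signalling also called Sef, was lower in all transgenic mice (5.47, 5.45 and 5.82 against 5.92, 5.93 and 6.02). Its difference of -0.38 had an adjusted p of 0.0865 by limma and was called without transgenic mouse 3 (0.0185) and after quantile normalization (0.0266). A second probe set of Il17rd, near background, differed by -0.01.

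In the IL-1 receptor family 1 of 7 was called higher, against 7.5% of all genes. Il1rl2, the IL-36 receptor of skin and gut epithelium, had signals of 4.42, 4.23 and 4.40 in control and 4.90, 4.70 and 4.80 in transgenic mice. The groups did not overlap. Each value lay below the array-control median of its own array, so no fold is given, although limma's adjusted p was 0.0230 for a difference of 0.45. Array controls themselves differed by 0.20 between the groups. Il1rap, the accessory chain that the receptors of IL-1, IL-33 and IL-36 share, went the other way, at 7.39, 7.19 and 7.33 in control and 6.67, 7.01 and 7.08 in transgenic crypts. Its difference was -0.38 (95% interval -0.69 to -0.08, limma's adjusted p = 0.104).

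Il18rap, a chain of the IL-18 receptor, stood at 5.05, 4.86 and 4.87 in control and 5.95, 5.23 and 5.17 in transgenic mice (adjusted p = 0.164 in limma). As for Il2ra, the groups did not overlap but transgenic mouse 1 stood out. The decoy Il1r2 differed by 0.29 (limma's adjusted p = 0.313). Il18r1 differed by 0.18 near background, and the neuronal relatives Il1rapl1 and Il1rapl2 were below the array controls. Of the receptors of the beta common family, Il3ra, for IL-3, differed by 0.33 (limma's adjusted p = 0.0948), and Il5ra, for IL-5, was below the array controls.

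Read by receptor complex, both measured chains rose in 2 of 13 pairs, the type II IL-4 receptor and the IL-12 receptor. Il2rb, Il12rb1, Il10rb and Il17ra each stand in more than 1 pair, so the pairs are not independent. Over all genes 7.5% were called higher, which is a share of single genes and not of pairs. In 5 pairs 1 chain rose (the IL-2, IL-15, IL-23, IL-22 and IL-36 receptors). For the IL-36 receptor that chain was Il1rl2, which lay below the array controls on all arrays. In 6 pairs neither chain rose (the IL-18, IL-10, IL-20, IL-17A, IL-17C and IL-25 receptors). Il2rg, the shared chain of the IL-2 and IL-15 receptors, was not analysed here.

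Receptors typical of lymphocytes and those of epithelium both held called members. Of 12 lymphocyte-typical receptors, 6 rose (Il2rb, Il21r, Il12rb2, Il7r, Il27ra and Il12rb1) and all 12 differences were above 0, with a median of 0.60. Of 9 epithelial receptors, 3 rose (Il22ra1, Il13ra1 and Il1rl2), with a median of 0.45. That median is the value of Il1rl2, which lay below the array controls, and over the 7 epithelial receptors with a mean above the array controls it was 0.49. Without transgenic mouse 3 the median of the 9 was 0.26. Over all genes 7.5% rose and the median was 0.03. The difference between both groups was not tested. Without control mouse 1, 2 or 3 the lymphocyte-typical group kept 4 calls and the epithelial group 0. The shares of all genes called in those settings are not given here. Without transgenic mouse 2 the groups held 8 and 5 calls, where 14.1% of all genes were called higher. Without transgenic mouse 3 the epithelial group held 1. The 3 myeloid receptors had 0 calls, and of 11 broad or other receptors 1, Il4ra, was called.

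The receptors of each group were also set against the control mean in single mice. The median of the lymphocyte-typical receptors stood above the control mean by 0.66, 0.51 and 0.46 in transgenic mice 1, 2 and 3. For the epithelial receptors these values were 0.29, 0.07 and 0.40, and the members were split in transgenic mouse 2. There Il17re, Il13ra1, Il22ra1, Il1rl2 and Il17rc lay above every control, while Il17rb lay below every control. Whether the mice differed more in one group than in the other was not tested. Over all 35 receptors, 28, 20 and 28 were above every control in transgenic mice 1, 2 and 3, against 40.7%, 28.3% and 45.3% of all genes. Transgenic mouse 1 was the highest transgenic sample for 17 of the 35, and the share of all genes for which it was highest was not counted. Its array controls also had the highest median, 5.33 against 5.15 and 5.03 in transgenic mice 2 and 3.

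Markers of T cells and intraepithelial lymphocytes moved with the lymphocyte-typical receptors. Of 19 measured, 17 rose, against 7.5% of all genes. For all 19 every transgenic array lay above every control array, against 16.5% of all genes. The median difference was 1.35. Their summed signal was 13.94 to 14.21 (log2) in control and 15.29 to 15.55 in transgenic arrays. Ptprc, the pan-leukocyte marker CD45, rose by 1.32 and Cd3e, part of the T cell receptor complex, rose 2.29-fold, and no marker of this list had a mean below the array controls. The median of the list differed from the control mean by 1.39, 1.27 and 1.17 in transgenic mice 1, 2 and 3. The differences of Il21r (1.43) and Il2rb (1.42) were near that median, and those of Il12rb2, Il7r, Il27ra and Il12rb1 (0.58 to 0.88) were smaller. In these bulk samples more lymphocytes, more receptor RNA per lymphocyte and receptor RNA from other cells cannot be told apart.

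Of 5 NK and innate lymphoid markers Tbx21 (0.85) and Gata3 (0.38) rose. Ncr1, Klrb1c and Eomes were not called (limma's adjusted p = 0.174, 0.321 and 0.297). The list's summed signal was 8.05 to 8.12 in control and 8.60 to 8.81 in transgenic arrays. Tbx21 had the highest signal in that sum. When any 1 control was left out, Gata3 was not called (adjusted p of at most 0.0795 in limma), which left 1 call. Of 11 myeloid markers 4 rose and 1 fell, with a median of 0.41. Their summed signal overlapped between the groups (10.50 to 10.79 and 10.54 to 10.87). Lyz2, which was not called, had the highest signal in that sum and differed by -0.37. Without control mouse 1 or 3 only 1 myeloid marker rose. None of 8 B and plasma cell markers and none of 8 mesenchyme and vessel markers was called. The summed signal of the B and plasma cell list was 9.29 to 9.40 in control and 9.58 to 9.96 in transgenic arrays, with a median difference of 0.07. That of the mesenchyme and vessel list overlapped (9.27 to 10.01 and 9.48 to 9.97). Of 8 epithelial markers 4 rose, with a median of 0.23 and summed signals of 15.12 to 15.24 and 15.52 to 15.56, and 1 or 2 were called when any 1 mouse other than transgenic mouse 2 was left out. Over all genes 7.5% rose and 6.7% fell. The part of these marker lists in the receptor results was not tested.

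**Figure D3:**
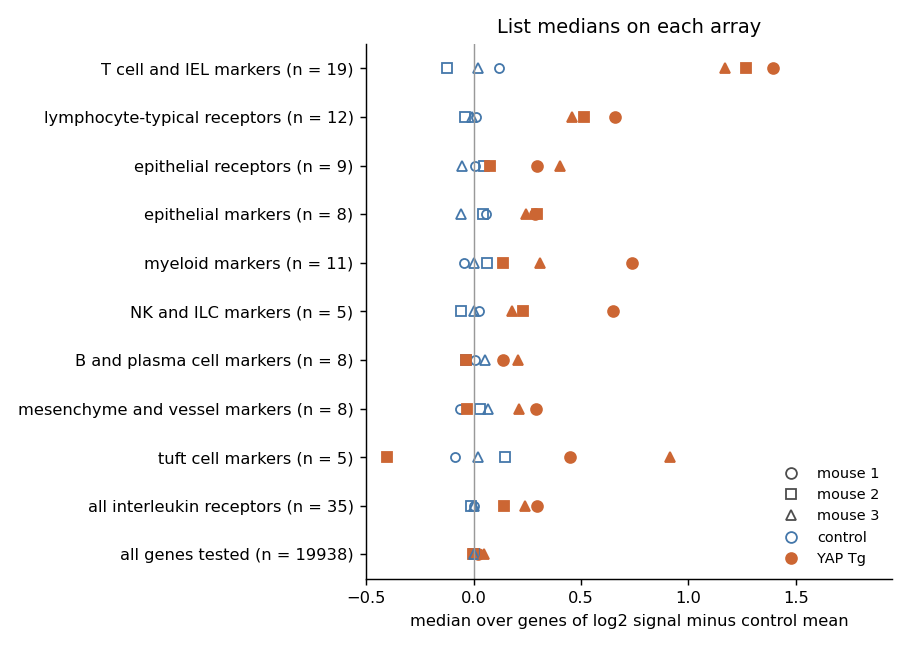
Median over the genes of each list (y axis, n = genes) of log2 signal minus the control mean (x axis), for each array; blue open symbols are control and orange symbols transgenic mice. T cell markers stand at 1.17 to 1.39 in transgenic mice, lymphocyte-typical receptors at 0.46 to 0.66 and epithelial receptors at 0.07 to 0.40.

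Of 33 interleukins measured, only Il33 rose and 0 fell, against 7.5% and 6.7% of all genes. Il33, an alarmin released by damaged epithelium, stood at 9.17, 9.08 and 9.06 in control and at 11.78, 11.80 and 12.23 in transgenic crypts, and rose by 2.84 (SE 0.13; limma's adjusted p = 4.8e-04). Il15 and Il7, the ligands of the chains Il15ra and Il7r, differed by 0.39 and -0.22 (limma's adjusted p = 0.481 and 0.499, named after their values were seen). Without transgenic mouse 2, 5 of the 33 were called higher, near the 14.1% of all genes called higher there. For 6 interleukins both group means lay below the array controls.

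Among 14 shared subunits, decoys and related proteins, a list that also holds Il13ra2 and Il22ra2, 4 rose and 0 fell. Over all genes 7.5% rose and 6.7% fell. Ifngr1, the ligand-binding chain for interferon gamma, rose by 0.98 (SE 0.11, adjusted p = 0.00399 in limma) and was called whichever mouse was left out. Il18bp, a soluble trap for IL-18, rose by 1.45 (SE 0.30, adjusted p = 0.0273), Crlf2, a chain of the receptor for thymic stromal lymphopoietin, by 0.33 and Il1rn by 0.53. These 3 were not called when any 1 control or transgenic mouse 1 was left out, nor were Crlf2 and Il1rn without transgenic mouse 3. The median over the 14 was 0.20.

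Of 23 genes of the JAK, STAT and SOCS families 7 rose and 0 fell, against 7.5% and 6.7% of all genes. The median was 0.22. Stat4, which acts below the IL-12 receptor, stood at 7.48, 7.39 and 7.44 in control and at 8.82, 8.86 and 8.56 in transgenic crypts, and rose by 1.31 (SE 0.10, adjusted p = 0.00108 in limma). Stat3, which acts below IL-22 and IL-6, rose by 0.80 (SE 0.06, adjusted p = 0.00130), and its 3 transgenic values were within 0.1 of each other. The feedback inhibitors Cish and Socs1 rose by 1.32 and 0.95, and these 4 genes were called whichever mouse was left out. Stat6, the factor below Il4ra, differed by 0.20 (limma's adjusted p = 0.318, named after its value was seen).

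Of 19 adaptors and regulators of IL-1 and IL-17 signalling 4 rose and 1 fell, against 7.5% and 6.7% of all genes. The median was 0.15. The NF-kB feedback inhibitor Tnfaip3 rose by 1.02 (SE 0.13, adjusted p = 0.00546 in limma), the kinase Ikbkb by 0.54 and Traf5 by 0.70, each called whichever mouse was left out. Irak2, a kinase-like adaptor below MyD88, rose by 0.62, but was not called without control mouse 1 or 3. The gene that fell was Irak3, an inhibitor of the same pathway (-0.51), not called without control mouse 1 or 2. Without transgenic mouse 2, 4 of the 19 were lower, near the 19.5% of all genes called lower there.

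Of 17 genes known to respond to IL-22 in epithelium, 4 rose and 3 fell, against 7.5% and 6.7% of all genes. The median was 0.51, and 14 of the 17 differences were above 0. All transgenic arrays lay above all control arrays for 9 of them and below for 3, against 16.5% and 17% of all genes. Socs3, which also stands in the JAK, STAT and SOCS list, rose 2.15-fold and Fut2, a fucosyltransferase of the epithelial surface, by 1.97 on the log2 scale (SE 0.38, limma's adjusted p = 0.0204). Those that fell were Pla2g5 (-1.80), Reg3a (-2.62) and Bcl2l15 (-1.07). The other genes that rose were Duox2 (2.80) and Saa3 (0.33). Fut2, Duox2 and Saa3 were named after their values were seen. Only Pla2g5 was called whichever mouse was left out. Without control mouse 1, 0 rose and 1 fell, and without transgenic mouse 1, 1 rose and 1 fell.

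**Figure D4:**
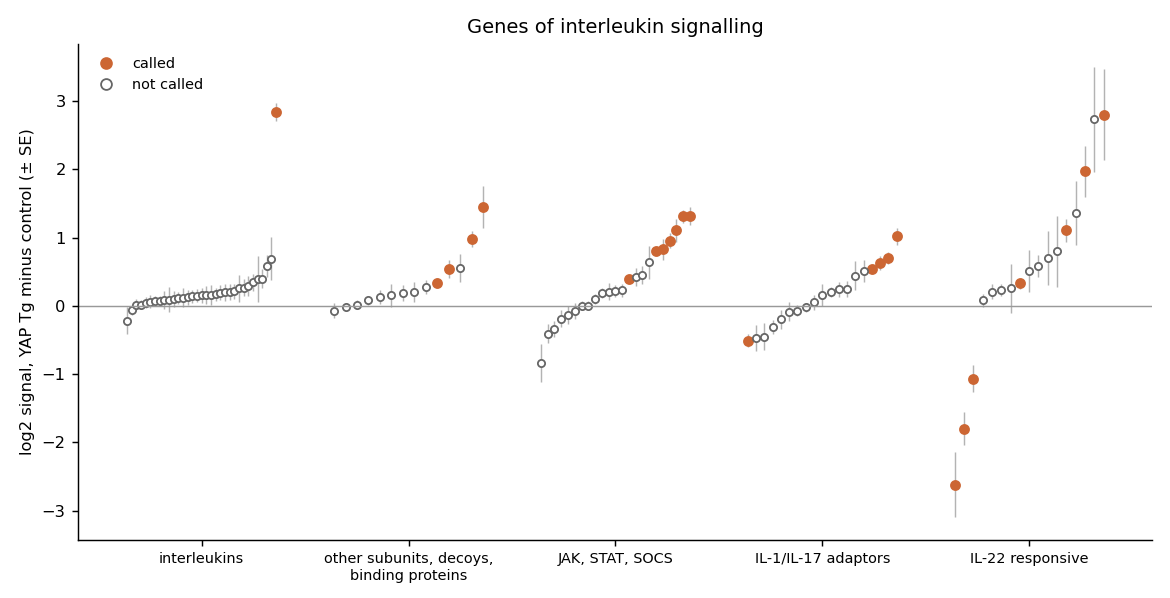
Log2 difference, transgenic minus control (y axis), of each gene in 5 lists of interleukin signalling (x axis), ordered by size within its list, with SE as bars; orange points were called by limma, and open points were not. Il33 is the highest point of the interleukins at 2.84, and the genes called in the IL-22 response list lie on both sides of 0.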

How the data were processed

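Log2 signals of 35556 probe sets were deposited by the authors for each of 6 arrays, and the submitters' processing notes name Affymetrix Expression Console 1.1. How background, normalization and probe summary were handled is unknown here. The 6617 probe sets numbered below the first annotated one were taken to be array controls. Of the other 28939, 21789 carried 1 symbol and 1621 more than 1, while 5529 were absent from the annotation table. The probe set with the highest mean was used for each of 19938 genes, and 3 receptors had several. Of these genes 29.5%, and 10 of the 35 receptors, had identical values on 2 or more arrays. Among the called receptors these were Il12rb2 and Il12rb1, and what the identical values did to the calls was not tested.

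Groups came from sample titles. Differences, transgenic minus control, were tested two-sided with limma 3.58.1 under R 4.3.3 (lmFit, eBayes, no covariate; Benjamini-Hochberg over all genes, threshold 0.05). The procedure was tested on simulated data. Lists are described by counts and medians, with no test. Members and lists were chosen with earlier results of these data known. All receptors could be named. Called ones, and epithelial ones above background, are given for every array, with up to 4 members with the smallest p from each signalling list. Symbols were matched to RefSeq GRCm38.p6 by Entrez identifier (21698 probe sets). Alternatives were leaving out each mouse, a replicate block, quantile normalization, median centring, signal filters, a trended robust prior, array weights, averaged probe sets and thresholds of 0.01 and 0.1.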

Additional observations from a re-analysis of the deposited data

How the results depend on the processing

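The count of 10 higher receptors ranged from 5 to 16 over the 6 settings that left out 1 mouse, and was 5 at an adjusted p below 0.01, the limit itself being stricter there. It was 7 to 14 under the other settings. The count of 0 lower receptors was 0 to 1 with 1 mouse left out, and was 1 after quantile normalization and at an adjusted p below 0.1; the gene was Il17rd each time, and the cause was not tested. The median difference of the lymphocyte-typical receptors (0.60) was 0.45 to 0.67 with 1 mouse left out and 1.03 among the 4 with a mean above the median of all genes. That of the epithelial receptors (0.45) was 0.26 (without transgenic mouse 3) to 0.46 with 1 mouse left out and 0.34 among the 6 with a mean above the median of all genes. No called receptor turned its direction under any setting run. With the replicate block 7 receptors were called higher. Same-numbered mice shared only a number (correlations of their deviations -0.13, 0.01 and 0.10), so the block describes no pairing. Signals near background limit what can be said of the 9 receptors below the array controls, and 3 arrays per group limit the rest.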
